A study of Homo sapiens with 6 samples.

Results

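The genes described here are 53 genes that prepare, start and carry out DNA replication, or supply its nucleotides. They were chosen by gene name, and all 53 were present in both deposited tables, among 14270 genes that the tables shared. The cells were U2OS, an established human osteosarcoma line. The labels described 6 RNA samples. They were 1 input from control cells (shNC, labelled wild type), 1 input from cells in which a short hairpin RNA lowered DNMT1, the maintenance DNA methyltransferase (shDNMT1), and 2 samples of RNA precipitated together with a mutant of the RNA methyltransferase NSun2 from each kind of cell. According to the labels, a plasmid with the NSun2 mutant had been put into both control and shDNMT1 cells, so precipitated RNA came from cells carrying extra NSun2. The tables gave 1 value per gene in FPKM, a fragment count scaled for the length of the transcript and the size of the library. Since no column named a sample, the tables are referred to as first and second only, and which cells, or whether input or precipitate, each holds is unknown here. No replicate, SD or test was available, and every difference below is one between these tables.

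Replication of DNA begins at origins. In G1 the origin recognition complex (ORC), CDC6 and CDT1 load a ring of MCM2 to MCM7 onto DNA, a step called licensing, and geminin (GMNN) blocks CDT1 afterwards. In S phase the kinases CDC7 and CDK2 switch the ring on by bringing in CDC45 and the GINS complex, and polymerases alpha, delta and epsilon copy the strands. Many of these genes are transcribed under the control of E2F factors and are active in dividing cells.

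The replication genes were mostly listed above the median gene, and their levels differed little between the tables. Of the 53 members, 44 in the first table lay above the median gene (4.03 FPKM), and in the second 47 did (3.43 FPKM). The lowest, median and highest member had 0.48, 13.2 and 176 FPKM in the first table. In the second they had 2.16, 14.6 and 157 FPKM. The order of levels was nearly kept, with a Spearman correlation of 0.97 across the 53 members, against 0.95 across 11416 genes with a mean of at least 1 FPKM. Genes of one table share its libraries and scaling and are not replicates, so these correlations are descriptions. In bulk RNA, fewer cells in S phase and less RNA per cell cannot be told apart. If a table holds precipitate, recovery with NSun2 cannot be told apart from them either.

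**Figure D1:**
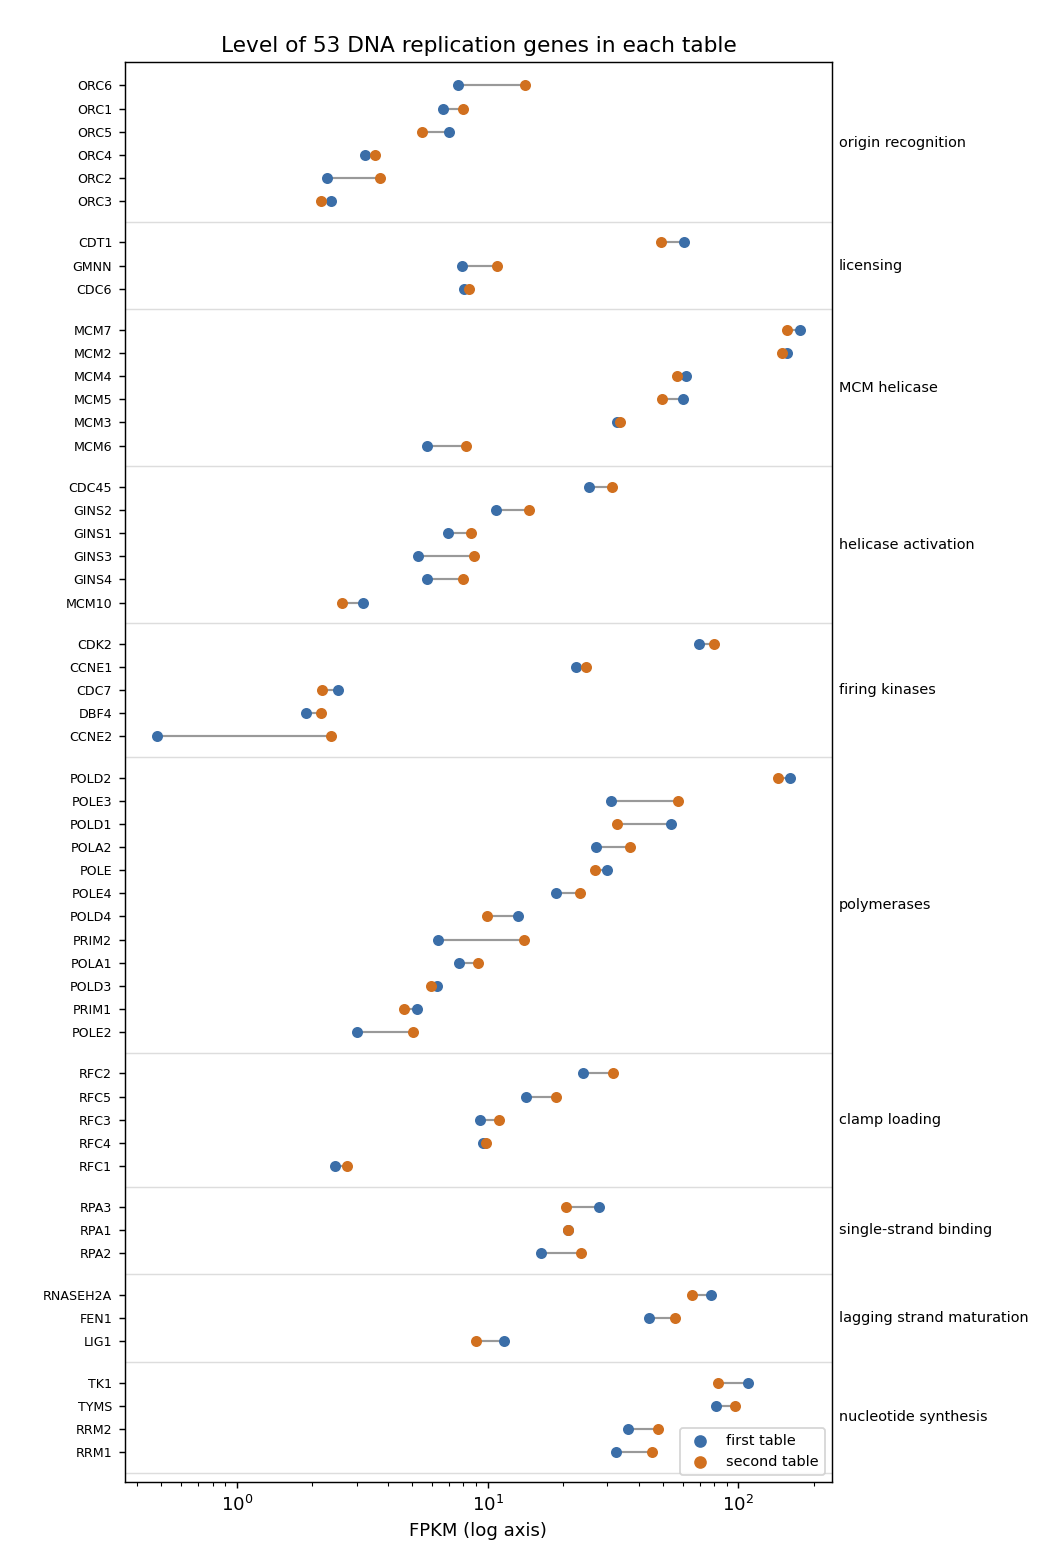
FPKM (log axis) of each of the 53 replication genes, grouped by step, with a blue point for the first table, an orange point for the second and a line joining them. Most pairs of points lie close together, and the longest line is that of CCNE2, from 0.48 to 2.37 FPKM.

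In the promoters, each MCM ring and licensing gene that could be looked up carried an E2F-like sequence, and the sequences are shown here because genes that were higher and genes that were lower in the second table both had them. RefSeq promoters (GRCh38.p14, 250 bases before to 50 after the start) were found for 45 of the 53 members by symbol. CCNE2, CDK2, GINS4, MCM4, MCM5, POLD3, RPA2 and RPA3 were not matched. The letters searched on both strands were TTTCCCGC, TTTCGCGC, TTTGCCGC and TTTGGCGC, and overlapping matches were counted as 1 site. A match was present in 20 of the 45 members (44.4%), in 6.93% of 8399 genes with a mean of at least 1 FPKM and in 3.99% of all 27305 genes of the promoter table. It was present in 4 of 4 MCM ring genes, 3 of 3 licensing genes, 3 of 5 helicase activation genes and 5 of 11 polymerase genes, but in 1 of 6 ORC genes and 1 of 5 clamp loader genes. In the remaining steps it was present in 1 of 4 nucleotide synthesis genes (TYMS) and 1 of 3 lagging strand genes (LIG1). The firing kinases had it in 1 of 3 genes (CDC7), and single-strand binding in 0 of 1. The windows below lie before the annotated start and are written 5′ to 3′ on the strand of the gene, with the matching letters in capitals.
MCM6, farther site, chr2:135876562-135876617, minus strand: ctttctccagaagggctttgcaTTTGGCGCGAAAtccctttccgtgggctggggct
MCM6, nearer site, chr2:135876500-135876555, minus strand: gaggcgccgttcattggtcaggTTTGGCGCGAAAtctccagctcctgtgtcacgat
MCM7, farther site, chr7:100101555-100101606, minus strand: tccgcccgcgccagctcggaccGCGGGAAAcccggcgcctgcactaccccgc
MCM3, farther site, chr6:52284887-52284938, minus strand: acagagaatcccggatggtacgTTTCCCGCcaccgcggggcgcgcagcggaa
CDT1, chr16:88803732-88803783, plus strand: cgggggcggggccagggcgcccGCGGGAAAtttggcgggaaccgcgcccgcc
GMNN, chr6:24775311-24775362, plus strand: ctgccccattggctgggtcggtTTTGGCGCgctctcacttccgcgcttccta
GINS2, chr16:85688956-85689007, minus strand: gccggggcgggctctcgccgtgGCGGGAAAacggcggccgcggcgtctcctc
POLA2, chr11:65261887-65261938, plus strand: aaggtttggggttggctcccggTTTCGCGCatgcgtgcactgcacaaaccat
TYMS, chr18:657592-657643, plus strand: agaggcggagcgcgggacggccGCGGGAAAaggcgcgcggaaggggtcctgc
LIG1, chr19:48170429-48170480, minus strand: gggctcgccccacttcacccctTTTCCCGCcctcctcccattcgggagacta
The MCM6 promoter held the same 12 letters, TTTGGCGCGAAA, at 152 and at 90 bases before the start, each a pair of overlapping matches on opposite strands. In CDT1, GINS2, TYMS and the farther MCM7 site the match lay on the opposite strand, read as GCGGGAAA. MCM7 and MCM3 each had a second match, TTTCGCGC on the strand of the gene, at 9 and 4 bases before the start. The median log2 ratio between the tables was 0.23 for the 20 members with a match and 0.13 for the 25 without one, and 13 and 16 of them were higher in the second table. A match is a description of letters and does not show that a factor bound there.

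Across the 53 members, 33 were higher in the second table and 20 lower. Among all 14270 genes 54.8% were higher and 45.2% lower, and among genes with a mean of at least 1 FPKM 57.5% were higher and 42.5% lower, so the members' 62.3% stood close to the background. The log2 ratio of second over first, taken as log2(FPKM + 1) in each table, had a median of 0.13 over the members, 0.05 over all genes and 0.09 over genes with a mean of at least 1 FPKM. At 2-fold on this scale 2 members, CCNE2 and PRIM2, were higher, against 2.04% of all genes, and 0 were lower, against 1.68%. At 1.5-fold on this scale 5 members were higher, where 12.2% of all genes were, and 1 was lower, where 7.83% were. The 5 were CCNE2, PRIM2, POLE3, ORC6 and GINS3, and the 1 was POLD1. With a pseudocount of 0.1 FPKM, ORC2 and POLE2 also passed 1.5-fold and made 7. The members were spread less widely than genes with a mean of at least 1 FPKM, which were lower in level (median 7.32 against 13.2 FPKM in the first table). Among all 1277 genes at 50 FPKM or more on average, 60 were at least 1.5-fold higher and 60 lower. Among the 6475 from 1 to under 10 FPKM, 1098 were higher and 647 lower by that much. The part of level in the members' narrower spread was not tested. The SD of the log2 ratio across them was 0.39, against 0.48 across genes with a mean of at least 1 FPKM, and 88.7% of them lay within 1.5-fold, against 78.4%.

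**Figure D2:**
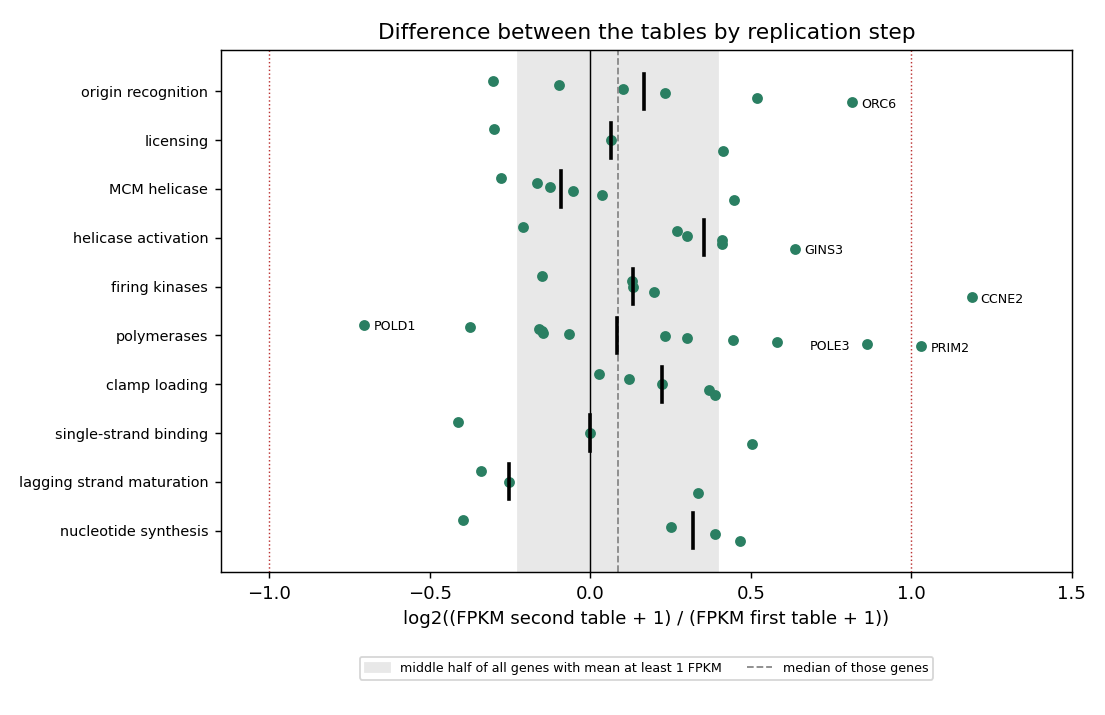
Log2 ratio of second over first table (pseudocount 1 FPKM) for each replication gene by step, with a black bar at the median of the step, a grey band for the interquartile range and a dashed line for the median of genes with a mean of at least 1 FPKM, and red dotted lines at 2-fold. The 5 clamp loader genes lie to the right of 0, while 4 of the 6 MCM genes lie to the left, and CCNE2 and PRIM2 are beyond the 2-fold line.

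The origin recognition complex marks origins and is the platform for loading the ring. Its genes were low, between 2.29 and 7.60 FPKM in the first table and between 2.16 and 14.1 FPKM in the second. ORC6, the subunit least like the others, was listed at 7.60 and 14.1 FPKM (log2 ratio 0.81) (chromosome 16, 46689643 to 46698394, hg38). It was the highest of the 6 in both tables, and it shared its locus with no other gene. ORC1, the subunit whose level varies through the cell cycle, was listed at 6.61 and 7.95 FPKM. ORC2 had 2.29 and 3.72 FPKM, in a locus shared with NDUFB3 at 10.1 and 16.5 FPKM. ORC4 had 3.26 and 3.57 FPKM, in a locus shared with ACVR2A and MBD5. ORC3 and ORC5 were lower in the second table. ORC3 had 2.38 and 2.16 FPKM, and ORC5 had 7.01 and 5.49 FPKM. The complex holds one copy of each subunit as protein. In RNA, which does not give protein levels, the span from highest to lowest was 3.32-fold in the first table and 6.55-fold in the second.

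For licensing, CDT1 was the abundant gene and its inhibitor the scarcer one. CDT1, which brings the MCM ring to ORC, was listed at 60.8 and 49.2 FPKM (log2 ratio -0.30.) GMNN, the inhibitor of CDT1, was listed at 7.93 and 10.9 FPKM (log2 ratio 0.41.) The level of CDT1 was 7.66 times that of GMNN in the first table and 4.51 times in the second. CDC6, the ATPase that works with ORC in loading, was nearly level at 8.02 and 8.42 FPKM. These 3 genes were alone at their loci.

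The MCM ring genes included the most abundant of the 53, with one low member. MCM7 was listed at 176 and 157 FPKM, the highest of all members in both tables. MCM2 was listed at 155 and 150 FPKM. MCM4 had 61.8 and 56.6 FPKM. MCM5 had 60.3 and 49.5 FPKM. These 4 were lower in the second table, by log2 ratios between -0.28 (MCM5) and -0.05 (MCM2). Of genes with a mean of at least 1 FPKM, 42.5% were lower. MCM3 was level at 32.7 and 33.6 FPKM. MCM6, whose promoter held the repeated 12 letters shown above, was listed at 5.74 and 8.19 FPKM (log2 ratio 0.45.) The ring holds one copy of each of the 6 proteins, but the values here are of RNA and do not give protein levels. MCM7 was 30.6 times as high as MCM6 in the first table and 19.1 times in the second. The order of the 6 genes was the same in both. MCM7 shared its merged locus with 5 other identifiers, of which TAF6 was the highest at 31.3 and 24.7 FPKM, and MCM2 shared its locus with TPRA1 at 61.0 and 53.1 FPKM. The sources used here do not say how fragments were divided there. Among the 4 ring genes alone at their loci the span from highest to lowest was 10.8-fold and 6.91-fold.

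The genes that turn the ring into a moving helicase were mostly low, and 5 of 6 were higher in the second table. CDC45, a core partner of the active helicase, was listed at 25.2 and 31.4 FPKM. The 4 GINS genes, which encode the subunits of one complex, were each higher in the second table. The share of genes with a mean of at least 1 FPKM that were higher was 57.5%. GINS2 was listed at 10.8 and 14.6 FPKM, in a locus shared with GSE1 at 14.1 and 21.2 FPKM. GINS3 was listed at 5.29 and 8.79 FPKM (log2 ratio 0.64.) GINS1 had 6.95 and 8.59 FPKM, and GINS4 had 5.75 and 7.96 FPKM, in a locus shared with GPAT4 at 19.1 and 17.0 FPKM. Within each table the GINS genes lay close together, with a span of 2.03-fold and 1.84-fold, and their summed level was 28.8 and 40.0 FPKM. MCM10, which helps the assembled helicase to start, was the lower one at 3.19 and 2.62 FPKM.

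Among the kinases that fire origins, cyclin E1 was far above cyclin E2 in both tables. CDK2, the partner kinase of the E cyclins, was listed at 69.7 and 80.1 FPKM. CCNE1 was listed at 22.4 and 24.7 FPKM. CCNE2 was the lowest member of the 53 in the first table, at 0.48 FPKM, and stood at 2.37 FPKM in the second (log2 ratio 1.19), a fold of 4.94 without the pseudocount. It lay in a merged locus (chromosome 8, 94813311 to 95116455) with NDUFAF6 at 6.22 and 8.80 FPKM and INTS8 at 7.66 and 7.29 FPKM, so the division of fragments between these genes enters its value. CCNE1 was 46.8 times as high as CCNE2 in the first table and 10.4 times in the second. CDC7, the kinase that phosphorylates the MCM ring, was listed at 2.53 and 2.18 FPKM. Its activator DBF4 was listed at 1.89 and 2.16 FPKM, close to CDC7 in both tables, and shared its locus with SLC25A40 at 1.58 and 3.24 FPKM.

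**Figure D3:**
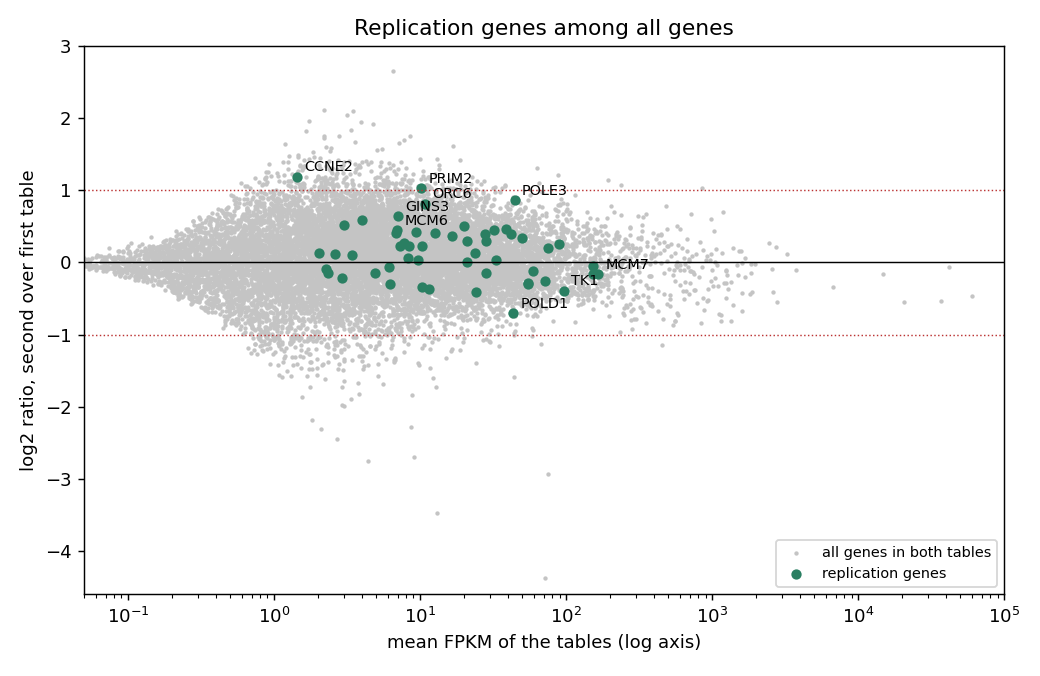
Log2 ratio of second over first table (pseudocount 1 FPKM) against the mean FPKM (log axis), with grey points for genes in both tables, green points for the replication genes and red dotted lines at 2-fold; genes of very low level fall left of the axis. CCNE2, at 0.48 and 2.37 FPKM, sits at the low end, and MCM7 is the right-most replication gene.

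The 12 polymerase genes were evenly divided, with 6 higher in the second table and 6 lower, with the complexes differing in their split. Polymerase delta was lower in 4 of 4 genes, against 42.5% of genes with a mean of at least 1 FPKM. Polymerase delta makes most of the lagging strand, and its summed level was 234 and 192 FPKM. Its catalytic subunit POLD1 was listed at 53.8 and 32.7 FPKM (log2 ratio -0.70) (chromosome 19, 50384204 to 50431313), the lowest ratio of the 53. POLD2, the subunit that holds the complex together, was listed at 160 and 143 FPKM. POLD4, a small subunit, had 13.2 and 9.95 FPKM, in a locus shared with the abundant PPP1CA at 149 and 116 FPKM. POLD3 had 6.26 and 5.94 FPKM. The level of POLD2 was 2.98 times that of POLD1 in the first table and 4.39 times in the second.

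Polymerase epsilon, which makes most of the leading strand, had its catalytic subunit lower and the other 3 higher in the second table. Of genes with a mean of at least 1 FPKM, 57.5% were higher. POLE was listed at 29.9 and 26.9 FPKM (log2 ratio -0.15.) POLE3, a histone-fold subunit, was listed at 31.2 and 57.5 FPKM (log2 ratio 0.86) (chromosome 9, 113407235 to 113429684). By level it took place 16 among the 53 in the first table and place 8 in the second. POLE4, the partner of POLE3, had 18.7 and 23.3 FPKM. POLE2 had 3.02 and 5.02 FPKM (log2 ratio 0.58), just under 1.5-fold on the log2(FPKM + 1) scale and 1.66-fold without the pseudocount. The sum over the 4 genes was 82.8 and 113 FPKM.

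Polymerase alpha and primase lay the RNA-DNA primers for both strands, and 3 of their 4 genes were higher in the second table. The share higher among genes with a mean of at least 1 FPKM was 57.5%. PRIM2, the large primase subunit, was listed at 6.32 and 14.0 FPKM (log2 ratio 1.03), a fold of 2.21 without the pseudocount (chromosome 6, 57314805 to 57646849). With all ratios shifted so that the median gene is at 0, it came under 2-fold. It was alone at its locus, unlike CCNE2. PRIM1, the catalytic primase subunit, was listed at 5.22 and 4.62 FPKM, in a locus shared with NACA at 36.6 and 56.5 FPKM. The subunits of primase therefore stood 1.18 apart in log2 ratio, the widest gap within any of the complexes examined. POLA1, the catalytic subunit of polymerase alpha, had 7.65 and 9.17 FPKM, and its partner POLA2 had 27.0 and 37.0 FPKM.

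The clamp loader, replication factor C, opens the PCNA ring and places it on DNA. Each of its 5 genes was higher in the second table, with a summed level of 59.7 and 74.1 FPKM, although 0 of the 5 reached 1.5-fold. Among genes with a mean of at least 1 FPKM, 57.5% were higher. With the centring by gene density described below, RFC1 (-0.03) and RFC4 (-0.13) were below 0. RFC3 (0.02), RFC5 (0.21) and RFC2 (0.39) stayed above it. RFC2 was listed at 24.0 and 31.7 FPKM. RFC5 was listed at 14.3 and 18.7 FPKM, in a locus shared with WSB2 at 19.9 and 31.5 FPKM. RFC3 had 9.36 and 11.1 FPKM. RFC4 was nearly level at 9.62 and 9.83 FPKM, in a locus shared with the more abundant EIF4A2 at 62.3 and 61.1 FPKM. With that same shift to the median gene, RFC4 and MCM3 changed sign. RFC1, the large subunit, was the lowest at 2.46 and 2.76 FPKM, and RFC2 was 9.78 and 11.5 times as high.

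The 3 genes of replication protein A, which coats single-stranded DNA, differed in direction but lay within 1.70-fold of each other in the first table and 1.14-fold in the second. RPA1, the large subunit, was listed at 20.9 FPKM in both tables and is counted among the lower genes only through a difference beyond the printed digits. RPA2 had 16.3 and 23.5 FPKM. RPA3 had 27.7 and 20.6 FPKM, in a locus shared with GLCCI1 and UMAD1. Their summed level was 64.9 FPKM in both tables.

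Of the genes that finish the lagging strand, FEN1 was higher and the other 2 were lower in the second table. FEN1, the flap endonuclease, was listed at 44.2 and 56.1 FPKM. RNASEH2A, the catalytic subunit of the RNase H2 that removes RNA from DNA, was listed at 78.0 and 65.4 FPKM. LIG1, the ligase that seals the fragments, was listed at 11.6 and 8.97 FPKM. FEN1 and RNASEH2A lay in merged loci with abundant neighbours, TMEM258 at 120 and 103 FPKM and PRDX2 at 193 and 153 FPKM, while LIG1 was alone.

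The nucleotide supply genes were all above 30 FPKM, and both subunits of ribonucleotide reductase were higher in the second table by a similar amount. RRM1 was listed at 32.4 and 45.2 FPKM. RRM2, the subunit that limits the enzyme in S phase, was listed at 36.3 and 47.9 FPKM. Their log2 ratios were 0.47 and 0.39, and RRM2 was 1.12 and 1.06 times as high as RRM1. TYMS, the thymidylate synthase, was listed at 81.5 and 97.2 FPKM. TK1, the thymidine kinase of the salvage route, was listed at 109 and 83.0 FPKM (log2 ratio -0.39.) TK1 was thus above TYMS in the first table and below it in the second. TYMS shared its locus with ENOSF1 at 12.2 and 11.5 FPKM and with TYMSOS, a transcript listed in the first table only.

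The ratios were also set beside expression level and gene neighbourhood, along which the ratios of all genes varied. Of the 11 members at 50 FPKM or more on average, 8 were lower in the second table, and among all 1277 genes at that level 53.3% were lower. Of the 21 members under 10 FPKM, 15 were higher, and among all genes from 1 to under 10 FPKM 59.9% were higher. Gene density was taken as how many other listed genes start within 1 Mb of a locus start. Among genes with a mean of at least 1 FPKM the median log2 ratio was 0.26 in the sparsest of 5 density classes (0 to 10 genes) and -0.13 in the densest (46 to 122 genes). The 11 members in the densest class had a median of -0.17, with 7 lower, POLD1, POLD4, LIG1 and CDT1 among them. From the sparsest class up, the other member medians were 0.10 (9 members), 0.24 (18), 0.39 (7) and 0.18 (8), against 0.26, 0.21, 0.12 and 0.02 for those genes. The members' medians thus did not fall steadily with density. Their Spearman correlation with density was -0.18 over 53 members, against -0.30 over the 11416 genes, as a description of genes that share a table and a neighbourhood. PRIM2 had 9 neighbours and CCNE2 and ORC6 had 12 each. For centring, class medians over all 14270 genes were used instead, from 0.20 in the sparsest class to -0.12 in the densest. With each ratio centred on that median of its class, the median over the 53 members was 0.02, with 28 above 0 and 25 below. The part of density or level in the members' ratios was not tested.

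**Figure D4:**
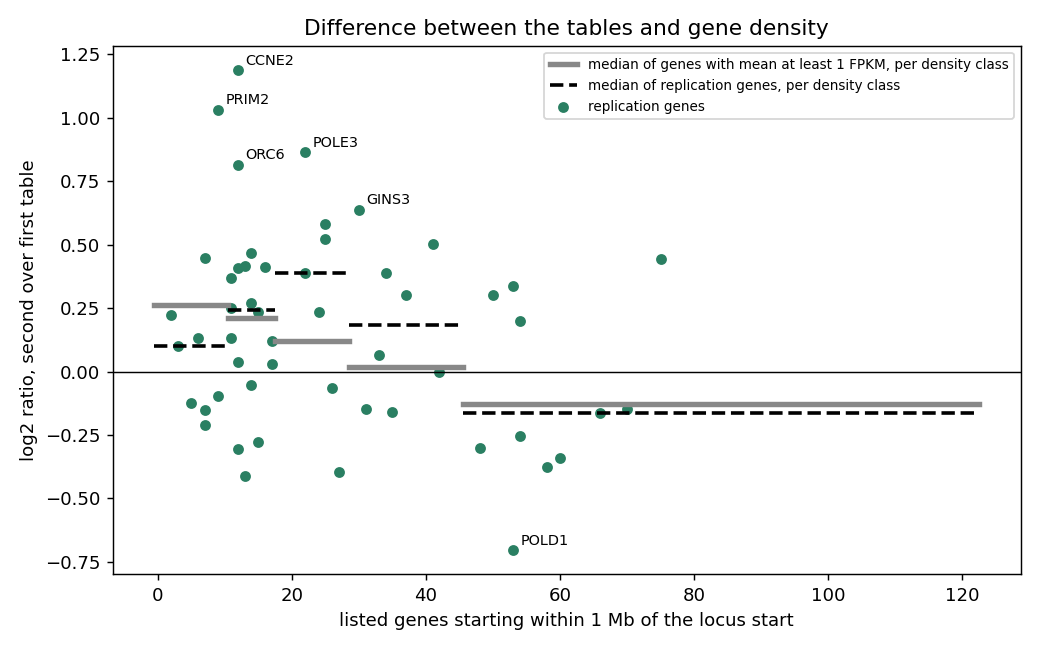
Log2 ratio of second over first table (pseudocount 1 FPKM) for each replication gene (green) against how many other listed genes start within 1 Mb, with the median per density class for genes with a mean of at least 1 FPKM (grey) and for replication genes (dashed black). Both medians are below 0 in the densest class, at -0.13 and -0.17, and POLD1 is the lowest point.

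A further 70 genes of the pathway, in 5 lists, were present in both tables, and 51 of them were higher and 19 lower in the second, with a median log2 ratio of 0.16. The share of all genes that were higher was 54.8%, or 57.5% at a mean of at least 1 FPKM. The shares of the initiation (61.1%) and E2F (60.0%) lists lay near it. It was 72.9% over the 70 genes, 84.6% for clamp and fork, 76.2% for nucleotide supply and 87.5% for chromatin assembly. These 70 genes were not centred by gene density or level, and the part of either in their shares was not tested. On the log2(FPKM + 1) scale 0 of the 70 differed by 2-fold in either direction. At 1.5-fold on that scale 6 were higher and 1 lower, where the shares of all genes were 12.2% and 7.83%. The 6 were CLSPN, DTL, NASP, PAICS, E2F7 and WDHD1, and the 1 was MCM9. PCNA, the sliding clamp itself, was listed at 46.6 and 52.7 FPKM (log2 ratio 0.17.) Of 13 clamp and fork genes 11 were higher (median 0.31). CLSPN, the fork mediator claspin, came nearest at 2.99 and 6.90 FPKM (log2 ratio 0.99), which is 2.31-fold without the pseudocount, and was picked out after its value was seen. Nucleotide supply genes outside the 53 were higher in 16 of 21 (median 0.18). Chromatin assembly genes were higher in 7 of 8 (median 0.22). Initiation genes were higher in 11 of 18 (median 0.06), and MCM9, a relative of the ring proteins, was the 1 gene at least 1.5-fold lower, at 4.07 and 2.11 FPKM. The E2F factors and their partners were higher in 6 of 10 (median 0.06). E2F1 was listed at 36.3 and 29.5 FPKM (log2 ratio -0.29.)

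For the series as a whole, the knockdown target DNMT1 had 23.3 and 9.36 FPKM, and NSUN2 had 559 and 1147 FPKM, which does not separate plasmid RNA from that of the chromosomal gene. Of 9 osteoblast and bone matrix markers, the first table listed 2 and the second 5. The 2 in both, ALPL at 78.4 and 38.0 FPKM and COL1A1 at 3.04 and 0.45 FPKM, were lower in the second. RUNX2, BGLAP and SPARC were listed only in the second, at 0.81, 0.14 and 0.03 FPKM. SP7, COL1A2, IBSP and SPP1 were listed in neither. Of 5 mesenchymal markers 3 were higher in the second table (VIM at 262 and 407, FN1 at 4.84 and 11.7 and CDH2 at 7.41 and 16.2 FPKM) and 2 lower (PDGFRB at 4.07 and 1.08 and THY1 at 0.08 and 0.03 FPKM). Of 5 epithelial markers, 4 were in both tables and lower in the second. The keratins KRT8 and KRT18 stood at 1597 and 1410 FPKM and at 1293 and 1196 FPKM, CDH1 at 8.42 and 0.39 FPKM and EPCAM at 2.20 and 0.55 FPKM, and KRT19 was listed only in the first table, at 0.20 FPKM. The part of these markers in the replication genes' ratios was not tested. Of 6 blood, endothelial and liver markers only VWF was listed, at 0.20 and 0.03 FPKM. In all, 23 of the 53 members shared a locus with another identifier in at least one table, as 46.7% of all genes did, and RefSeq names pseudogene copies of 11 members, to which fragments could also be assigned.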

How the data were processed

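The deposited values were FPKM per gene in 2 tables, per the file headers, scaled by the authors for transcript length and mapped fragments. Which tool computed FPKM was not given in the sources used here. Per the submitters' processing notes, hg38, MACS 1.4.2, BWA 0.7.13 and cutadapt 1.12 were used, with no role stated. No column named a sample, so no group comparison, replicate or test was possible. Replication genes, steps and lists were chosen with earlier results of these data known, and each member is named. Other pathway genes were to be named at 2-fold or more, besides PCNA and E2F1. Those at 1.5-fold were named after their values were seen. The ratio was log2((second + 1)/(first + 1)), which understates differences of low genes. The code for its summary was run on simulated ratios set in advance, which checks the code and not the values reported here. Locus starts were counted from 0: adding 1 matched the RefSeq start for 1549 of 6749 genes, against 121 as listed, and printed starts have 1 added. Absolute depth is unknown. Ratios of values under 1 FPKM clustered at log2 -0.08 to -0.06 and at -1.06 to -1.04 (36 and 34 genes), so relative depth was not settled. Alternatives were another pseudocount, a level minimum, centring, unshared loci, summed identifiers and a 1.5-fold threshold. Python 3.11.15, pandas 2.3.3, numpy 2.4.6, scipy 1.17.1 and matplotlib 3.10.9 were used.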

Additional observations from a re-analysis of the deposited data

How the results depend on the processing

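No paired analysis was possible because no column names a sample or replicate, and for the same reason the count-based fits and leaving out replicates were not run. A change of 0.1 in a median or ratio, or of 1.5 times in a count, was taken as a move. A pseudocount of 0.1 FPKM moved none of the medians, 2-fold counts or direction counts over the members or steps. A mean of at least 1 FPKM kept all 53 members, and summing identifiers left each member's value the same. Neither of these settings could therefore move a result, and they say nothing on how stable the results are. The pseudocount of 0.1 FPKM took the members at least 1.5-fold higher from 5 to 7 and moved 3 single ratios, CCNE2 to 2.09, ORC2 to 0.68 and POLE2 to 0.71. With centring on all genes the members at least 2-fold higher went from 2 to 1. At 1.5-fold in place of 2-fold, 5 were higher and 1 lower without centring, and 4 were higher and 1 lower with it. Among the 30 members alone at their locus, fewer by construction, 18 were higher and 12 lower, 1 at least 2-fold higher. Step medians there were -0.0089 for firing kinases, left with CDC7 and CCNE1 only, and 0.30 for polymerases. For single-strand binding the value of 0.50 is that of RPA2, the only gene left. The span within MCM2 to MCM7 was 10.8 and 6.91. Within polymerase delta it was 2.98 and 4.39, which is POLD2 over POLD1, the only subunits left. Settings chosen after seeing the data were centring by density class and leaving out CCNE2 and PRIM2. The first took the 33 higher and 20 lower members to 28 and 25, moved 38 of the 53 single ratios and gave an overall median of 0.020, 1 member at least 2-fold higher, and step medians of 0.020 (clamp loading), -0.024 (firing kinases), 0.26 (helicase activation), -0.13 (lagging strand), 0.20 (nucleotide synthesis) and 0.030 (origin recognition). The 38 were the members of the density classes whose median lay more than 0.1 from 0, so that count only restates class membership. The second left 0 at least 2-fold higher and a polymerase median of -0.067. The cause of the other moves was not tested. Unknown depth limits the low members most, above all CCNE2 at 0.48 FPKM.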

Other observations

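Further promoter letters were counted in the 45 matched members. CCAAT, searched on both strands, was present in 26 (57.8%), against 43.8% of genes with a mean of at least 1 FPKM. TTTGAA, the cell cycle homology region, was present in 3 (6.67%), against 13.0% of those genes. The 3 were DBF4, POLE3 and RRM1, with log2 ratios of 0.13, 0.86 and 0.47. The median GC content of the members' promoters was 65.0%, against 65.3% over the promoters of genes with a mean of at least 1 FPKM.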
